A study of Mus musculus with 6 samples.

Results

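Plexins are the cell-surface receptors of semaphorins, and 10 genes of this signalling family were followed here: the plexin genes Plxna1, Plxna2, Plxnb2, Plxnc1 and Plxnd1, the semaphorin genes Sema4a, Sema4b, Sema4d and Sema7a, and the co-receptor gene Nrp1. Every probe set annotated to exactly 1 of these symbols was taken, which gave 27 of the 45037 probe sets tested, and 10 of 18193 genes. The genes were proposed with the difference between the groups already known, so their values are a description and no test of them is offered as support. The samples were 6 Affymetrix arrays of total RNA from mouse acute lymphoblastic leukaemia cells, which the series title describes as driven by BCR-ABL1, a constitutively active tyrosine kinase made by a chromosomal fusion. The AID-/- group held 3 arrays of leukaemia from the knockout genotype. The AID+/+ group held 3 arrays of leukaemia from the wild-type genotype. Both groups are labelled Balb/c. The labels give no age, no sex, no culture or transplantation history and no number of animals, so a biological replicate may or may not be a separate mouse, and spread and p-values cover only these arrays. The comparison asks which expression differences accompany the AID genotype in this leukaemia.

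Semaphorins are secreted, membrane-spanning or lipid-anchored proteins that share an extracellular sema domain, and plexins bind them through a sema domain of their own. The cytoplasmic part of a plexin is a GTPase-activating domain for small GTPases of the Ras and Rap families, and it also recruits regulators of other small GTPases, so that a bound semaphorin changes integrin adhesion and the actin cytoskeleton. Neuropilins assist class A plexins in binding secreted semaphorins and also bind vascular endothelial growth factors. In the immune system, Sema4d (CD100) acts on B cells through CD72, Sema4a costimulates T cells, and the lipid-anchored Sema7a (CD108) binds both plexin C1 and integrins that contain the beta 1 chain.

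The sequences just before the transcription start are shown for 3 members with a single start in the RefSeq table (build GRCm38.p6): Plxna2, which differed most between the groups, and the receptor and ligand pair Plxnc1 and Sema7a, which were both higher in AID-/- leukaemia. Each window holds the 250 bases before the start, on the gene's strand, and capitals mark GC boxes (GGGCGG, searched on both strands). The windows lie at chr1:194619579-194619828 on the plus strand for Plxna2, at chr10:94944846-94945095 on the minus strand for Plxnc1 and at chr9:57939862-57940111 on the plus strand for Sema7a.
Plxna2: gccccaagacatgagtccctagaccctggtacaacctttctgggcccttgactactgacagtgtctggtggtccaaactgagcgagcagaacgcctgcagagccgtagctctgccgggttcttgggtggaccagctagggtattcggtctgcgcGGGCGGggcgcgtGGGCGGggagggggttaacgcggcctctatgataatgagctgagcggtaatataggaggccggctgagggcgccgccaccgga
Plxnc1: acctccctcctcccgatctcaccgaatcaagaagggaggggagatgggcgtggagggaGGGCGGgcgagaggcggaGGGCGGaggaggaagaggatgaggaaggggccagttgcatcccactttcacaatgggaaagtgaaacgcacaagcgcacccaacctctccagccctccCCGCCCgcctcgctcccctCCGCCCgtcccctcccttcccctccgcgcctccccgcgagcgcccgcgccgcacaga
Sema7a: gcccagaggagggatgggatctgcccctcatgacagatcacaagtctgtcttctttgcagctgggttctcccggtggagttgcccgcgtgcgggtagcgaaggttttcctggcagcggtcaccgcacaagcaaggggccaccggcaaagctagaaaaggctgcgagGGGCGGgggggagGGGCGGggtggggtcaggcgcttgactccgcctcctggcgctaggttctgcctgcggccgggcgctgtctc

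These windows resembled each other in base composition. The Plxna2 window held 2 GC boxes and 18 CpG dinucleotides, the Plxnc1 window 4 and 22, and the Sema7a window 2 and 17. Over the 32851 windows of the same length in the table, 32.7% held a GC box and the median was 6 CpG dinucleotides. None of the 3 windows held a TATA box (TATAAA, both strands), which 12.4% of all windows held. The E-box letters CANNTG, which match 66.2% of all windows, occurred once in the Plxnc1 and Sema7a windows and had no match in that of Plxna2. A start was found for 9 of the 10 members, all but Plxna1. The windows of Plxna2, which was lower, and of Plxnc1 and Sema7a, which were higher in AID-/- leukaemia, were thus all GC-rich. Other members varied: the Sema4a windows held 2, 3, 13 and 6 CpG dinucleotides and the Sema4d windows 2, 1 and 2. Those of Plxnb2, Plxnd1 and Sema4b held 13 to 23, and that of Nrp1 held 11. These matches describe letters, not binding.

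Expression values are log2 values from robust multi-array averaging (RMA), ranging from 2.15 to 14.33, and differences are AID-/- minus AID+/+ with the moderated standard error (SE) of a limma fit. The 6 array medians lay between 4.85 and 4.90. Values are compared between arrays for the same probe set, not between genes, since probe sets differ in brightness. The mean over the arrays was above the median probe set (4.89) for 16 of the 27 probe sets, from 8 of the 10 genes. Plxnd1 and Nrp1 had none above it. Of the lineage markers, all 9 measured B-lineage genes lay above that median, with a summed linear level of 47300 to 51500 in AID-/- and 40500 to 44100 in AID+/+ arrays. T cell, myeloid, erythroid and stromal lists had 3 of 6, 2 of 9, 1 of 4 and 1 of 6 members above it. Their summed levels were 163 to 175, 203 to 227, 107 to 114 and 158 to 169 in AID-/- arrays, against 170 to 182, 181 to 211, 113 to 135 and 153 to 165 in AID+/+ arrays. The dendritic and endothelial lists had 3 of 6 and 2 of 5 members above it, with summed levels of 228 to 284 and 214 to 283 in AID-/- and 283 to 320 and 197 to 223 in AID+/+ arrays. Within the B-lineage list the limma fit over all genes called Blnk higher (difference 2.09) and Ptprc lower (-0.37). The B-lineage sums therefore do not stand for a rise in every gene. Lyz2 of the myeloid list (0.76) and Egfl7 of the endothelial list (0.36) were also called higher. No other gene of these lists was called. Xist was high in all 3 AID+/+ arrays (11.93 to 12.18) and low in all AID-/- arrays (4.35 to 6.02), and genotype cannot be told apart from sex.

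Across the 27 probe sets the limma fit called 5 higher and 5 lower in AID-/- leukaemia at an adjusted p under 0.05, or 37.0%. Of all probe sets 14.6% were called, 7.24% higher and 7.39% lower. The genes were proposed from this contrast, so nothing is read from that share. The calls lay in Plxna1 and Plxna2 (lower) and in Plxnc1, Sema4a and Sema7a (higher), and the other 5 genes had none. The arrays of the groups did not overlap at 13 probe sets (48.1%), 7 of them higher and 6 lower, against 32.9% of all probe sets. The number called was 6 without AID-/- replicate 2, 4 without AID-/- replicate 3, 6 without AID+/+ replicate 1, and 5 without AID+/+ replicate 2 or 3. Each of these 5 omissions ended both Sema4a calls and at least 2 of the 4 Plxna2 calls, among them, except without AID-/- replicate 2, that at the brightest Plxna2 probe set. Omitting AID-/- replicate 3 also ended the call at the brightest Plxnc1 probe set. The calls on Plxna1, Sema7a, Plxna2 at 1429772_at and Plxnc1 at 1450905_at were kept whichever array was omitted. Without variance moderation it was 0 by the ordinary linear model, with 10 at an unadjusted p under 0.05, against 14 in the moderated fit. The median difference was 0.05 over the 27 probe sets and -0.04 over all probe sets, and the median absolute difference was 0.29 against 0.15.

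**Figure D1:**
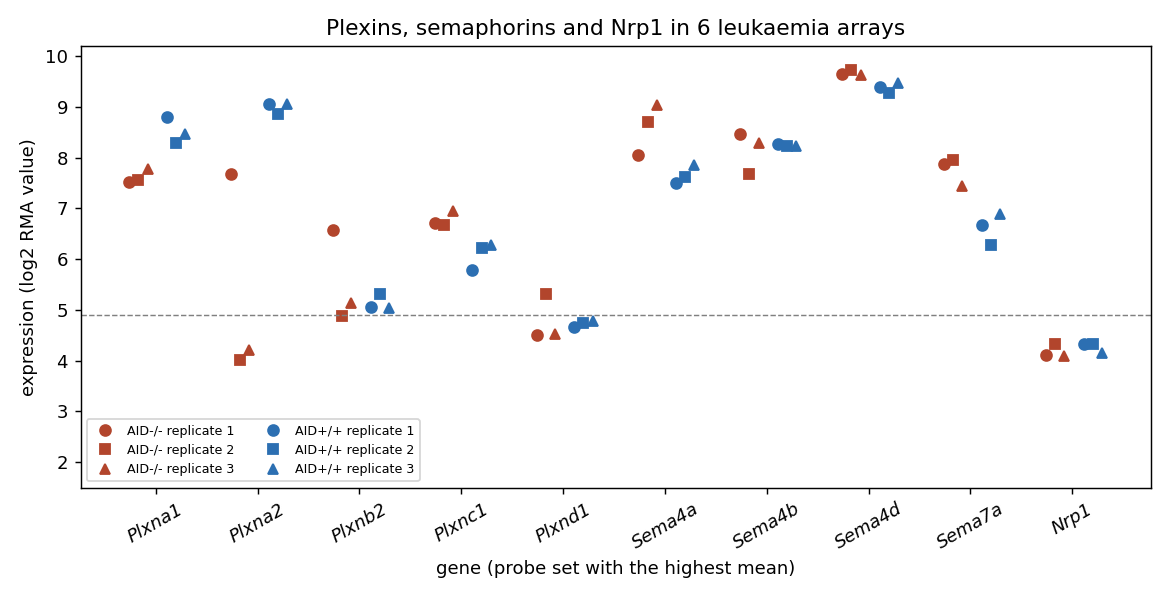
Log2 RMA expression of the 10 genes, each at its probe set with the highest mean, with 1 point per array, AID-/- in red and AID+/+ in blue, and a dashed line at the median probe set (4.89). Plxna1 and Plxna2 lie lower and Plxnc1, Sema4a, Sema4d and Sema7a higher in all AID-/- arrays, while AID-/- replicate 1 stands apart from the other AID-/- arrays for Plxna2 and Plxnb2.

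Plxna2, a class A plexin that binds Sema6a directly and secreted semaphorins together with neuropilins, showed the widest separation of all members. At its brightest probe set (1453286_at) the AID+/+ arrays read 9.05, 8.86 and 9.05, and the AID-/- arrays 7.68, 4.02 and 4.20 in replicates 1, 2 and 3. The groups did not overlap, but AID-/- replicate 1 lay much closer to the AID+/+ arrays than to its own group, at -1.31 from the AID+/+ mean against -4.97 and -4.78. The difference of the means was -3.69 (SE 0.83, n = 3 per group), or 12.9-fold, from 8.99 ± 0.11 to 5.30 ± 2.06 (SD, n = 3). In bulk RNA, fewer cells of a type and less RNA per cell cannot be told apart. Replicates 2 and 3 lay below the median probe set, where values hold little order, so the size is approximate.

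All 4 probe sets of Plxna2 gave the same order of arrays in broad terms. At 1455037_at the AID-/- arrays read 7.16, 3.18 and 3.83 and the AID+/+ arrays 8.07, 7.91 and 7.98, a difference of -3.26 (SE 0.86). At 1451753_at they read 6.46, 4.43 and 4.36 against 7.13, 7.11 and 7.15, a difference of -2.04 (SE 0.49). At 1429772_at they read 5.02, 3.14 and 3.15 against 6.28, 5.89 and 6.22, a difference of -2.36 (SE 0.45). In each, every AID-/- array was below every AID+/+ array, and replicate 1 was the highest of the AID-/- arrays. The size depended on which AID-/- array was left out. In the order given, the differences were -4.88, -4.48, -2.73 and -2.99 without replicate 1, -3.05, -2.49, -1.72 and -2.05 without replicate 2, and -3.14, -2.82, -1.68 and -2.05 without replicate 3. The spread inside the AID-/- group was among the widest on the array: only 16 of 45037 probe sets had a larger AID-/- SD than 1453286_at, and 13 had a larger one than 1455037_at. In AID+/+ leukaemia the same 4 probe sets had an SD of 0.02 to 0.21, where the median probe set had 0.12.

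**Figure D2:**
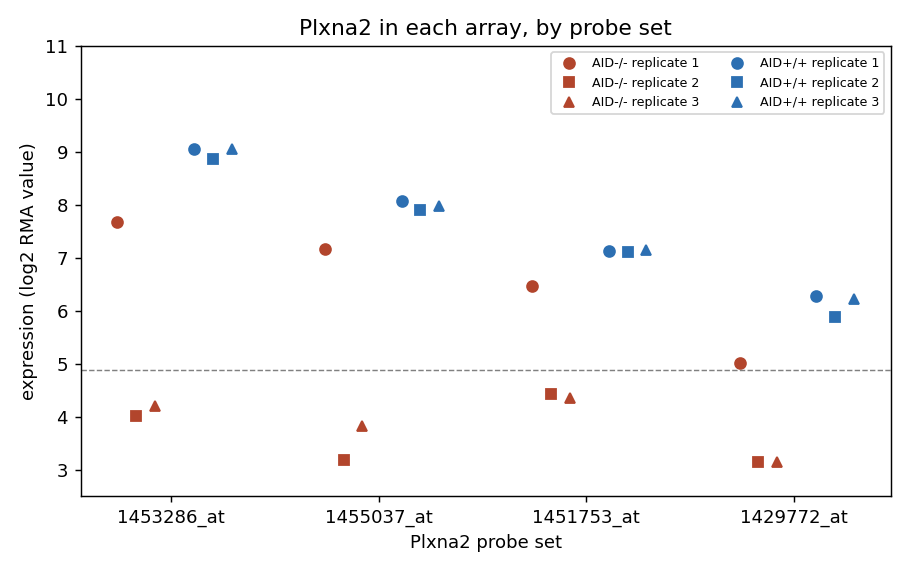
Log2 RMA expression of Plxna2 at its 4 probe sets, with 1 point per array, AID-/- in red and AID+/+ in blue, and a dashed line at the median probe set (4.89). AID-/- replicate 1 (red circle) sits between the AID+/+ arrays and AID-/- replicates 2 and 3 at every probe set.

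The genes whose 6-array pattern lay closest to that of Plxna2, by Euclidean distance between log2 profiles each centred on its own mean, were Umod (distance 1.53), B3gnt5 (1.56), Cd22 (1.97), Bmpr1a (2.09) and Itih5 (2.20). In Cd22, which encodes an inhibitory receptor of B cells, the AID-/- arrays read 9.59, 7.12 and 8.44 and the AID+/+ arrays 11.42, 11.01 and 11.15. In B3gnt5, a glycosyltransferase gene of glycolipid synthesis, they read 8.30, 5.40 and 6.93 against 10.35, 10.15 and 10.25. In both, as in Plxna2, replicate 1 was the highest of the AID-/- arrays. The choice of genes by distance to Plxna2 favours this order, so nothing is read from it. Of 7 listed markers of mature B and plasma cells, 6 were measured and 4 lay above the median probe set. Ms4a1, which encodes CD20, read 9.21, 5.76 and 7.76 in AID-/- and 8.44 to 9.14 in AID+/+ arrays, and Cr2, a complement receptor gene, read 4.83, 4.42 and 4.64 against 6.34 to 7.23. These were the only ones of the 6 that were highest, within AID-/- leukaemia, in replicate 1. The plasma cell genes Jchain (5.37, 6.73 and 5.09), Prdm1 (4.47, 5.58 and 4.50) and Sdc1 (6.25, 6.72 and 7.04) were highest in replicate 2 or 3, as was Fcer2a. The summed linear level of the 6 genes was 773, 348 and 443 in AID-/- and 648 to 923 in AID+/+ arrays. Ms4a1 alone made up most of this sum in AID-/- replicate 1 and in every AID+/+ array. The part of such cells or of this array in the Plxna2 result was not tested.

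Plxna1, a class A plexin of dendritic cells and other leukocytes that serves as a receptor for Sema6d, was lower in AID-/- leukaemia by a smaller and even amount. At its brighter probe set (1428623_at) the AID-/- arrays read 7.51, 7.55 and 7.78 and the AID+/+ arrays 8.80, 8.29 and 8.46. The groups did not overlap and all 3 AID-/- arrays lay close together. The difference was -0.90 (SE 0.14), or 1.87-fold. At the dimmer probe set (1421232_at) the values were 4.62, 4.96 and 4.71 against 5.54, 4.99 and 5.05, a difference of -0.43 (SE 0.16), with AID-/- replicate 2 nearly level with the lowest AID+/+ arrays.

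Plxnc1, the plexin that binds Sema7a, was higher in AID-/- leukaemia at the brightest of its 6 probe sets. At 1423213_at the AID-/- arrays read 6.71, 6.67 and 6.95 and the AID+/+ arrays 5.78, 6.21 and 6.28. At 1450905_at they read 6.25, 5.99 and 6.25 against 5.25, 5.34 and 4.86. Neither probe set showed overlap between the groups, and the differences were 0.68 (SE 0.15) and 1.01 (SE 0.14), or 1.60-fold and 2.02-fold. The other 4 probe sets had means of 2.76 to 3.95, all below the median probe set, with differences of -0.03 to 0.48. The higher signal was therefore seen at both probe sets with a mean above that median, and the dim ones carry little information on the gene.

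Plxnb2, a class B plexin that binds Sema4 ligands, was high in a single array. Its only probe set read 6.58 in AID-/- replicate 1, 4.88 and 5.14 in replicates 2 and 3, and 5.05, 5.32 and 5.04 in AID+/+ arrays. The groups overlapped, and the mean difference of 0.40 (SE 0.38) became -0.13 without AID-/- replicate 1. This array thus stood apart from the others of its group in both Plxna2 and Plxnb2. They were also the plexin genes with the widest AID-/- spread, which the distance of this array itself makes wide.

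Plxnd1, a receptor for Sema3e and Sema4a, lay near the median probe set in both groups. Its probe set read 4.51, 5.31 and 4.53 in AID-/- and 4.66, 4.74 and 4.79 in AID+/+ arrays, a difference of 0.05 (SE 0.20), with AID-/- replicate 2 the highest of the 6. Nrp1, the co-receptor for secreted class 3 semaphorins and vascular endothelial growth factors, was dim at all 4 probe sets, with means of 2.62 to 4.22. At the brightest (1457198_at) the AID-/- arrays read 4.11, 4.33 and 4.10 and the AID+/+ arrays 4.32, 4.33 and 4.15. The groups overlapped at each Nrp1 probe set, and the differences ran from -0.26 to -0.07. No detection calls were used here, so it cannot be said whether Nrp1 was expressed at all.

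Sema4a, a membrane semaphorin that binds plexin D1 and class B plexins, was higher in AID-/- leukaemia at both probe sets, again with AID-/- replicate 1 nearest to the AID+/+ arrays. At 1448110_at the AID-/- arrays read 7.82, 9.06 and 9.04 and the AID+/+ arrays 7.49, 7.18 and 7.35. At 1438934_x_at, whose suffix marks probes that can also bind other transcripts, they read 8.05, 8.70 and 9.03 against 7.50, 7.61 and 7.86. The groups did not overlap at either probe set, and the gap was narrow at replicate 1. The differences were 1.30 (SE 0.30), or 2.46-fold, and 0.94 (SE 0.23), and without replicate 1 they were 1.71 and 1.21.

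Sema7a, the lipid-anchored ligand of plexin C1, was higher in AID-/- leukaemia at 1 of its 2 probe sets. At 1459903_at the AID-/- arrays read 7.88, 7.95 and 7.45 and the AID+/+ arrays 6.68, 6.28 and 6.89, with no overlap and a difference of 1.14 (SE 0.18), or 2.21-fold. The other probe set (1422040_at) had a mean of 3.68, below the median probe set, and differed by 0.15 (SE 0.12) with overlapping groups. Sema7a and its receptor gene Plxnc1 were thus both higher in each AID-/- array than in any AID+/+ array at their brightest probe sets.

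Sema4d and Sema4b, both membrane semaphorins, were measured well above the median probe set at their brightest probe sets and differed little. Sema4d read 9.65, 9.72 and 9.62 in AID-/- and 9.40, 9.27 and 9.46 in AID+/+ arrays at its brightest probe set (1420824_at). The groups did not overlap there, yet the difference was only 0.29 (SE 0.09), or 1.22-fold. It was 0.15 (SE 0.28) and 0.12 (SE 0.11) at the others, where the groups overlapped. No Sema4d probe set was called in the main fit, but 1420824_at passed the threshold with dim probe sets left out. In the fit over all genes the same probe set missed the threshold. There it passed with median centring, with moderation by an intensity trend or with dim genes left out. Sema4b read 8.46, 7.68 and 8.28 in AID-/- and 8.26, 8.23 and 8.22 in AID+/+ arrays at its brighter probe set (1455678_at), a difference of -0.10 (SE 0.18). There the AID-/- arrays lay on both sides of the AID+/+ arrays, which spanned only 0.04. At the dimmer one (1427586_at) AID-/- replicate 1 read 5.76 and all other arrays 5.02 to 5.17.

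**Figure D3:**
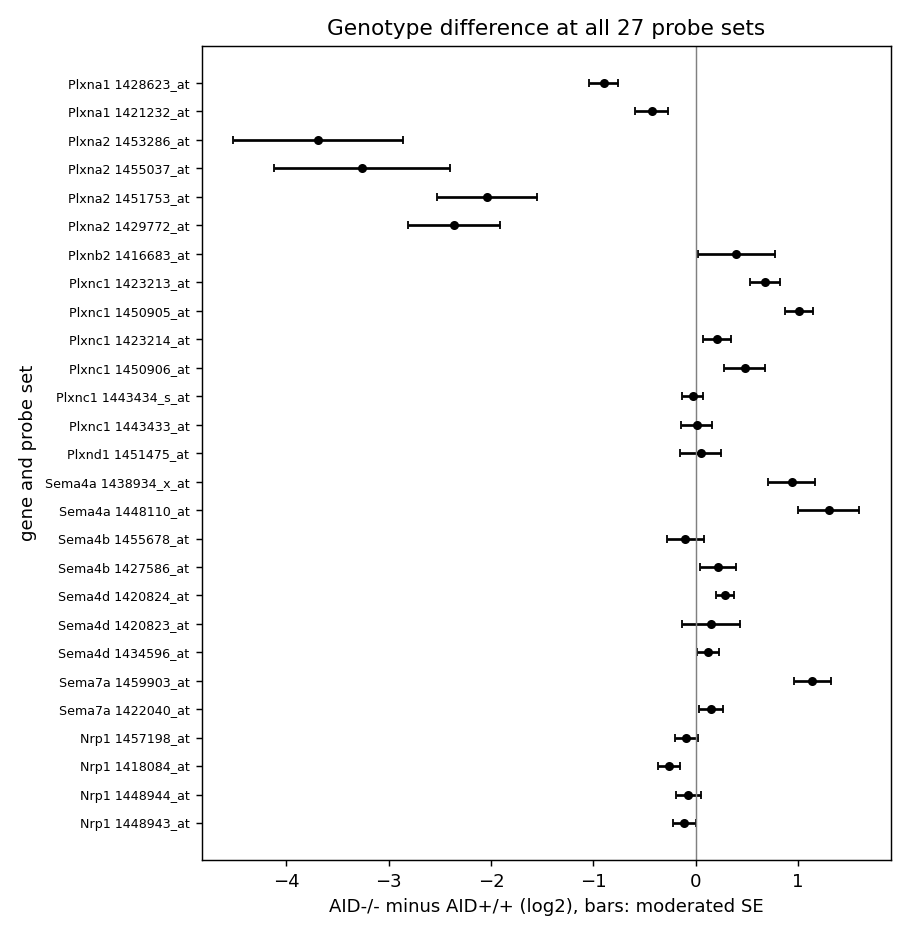
Difference between AID-/- and AID+/+ means (log2) at all 27 probe sets, grouped by gene and ordered within a gene from the highest to the lowest mean, with bars for the moderated SE. The 4 Plxna2 probe sets lie between -3.69 and -2.04 with wide bars, and the highest difference is 1.30 for Sema4a.

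In 6 of the 27 the AID-/- arrays spanned at least 1 log2 unit, which 2.20% of all probe sets did. In AID+/+ arrays 1 of 27 did, against 0.691% of all probe sets. AID-/- replicate 1 lay at least 1 log2 unit from both other arrays of its group, on the same side, at 6 member probe sets (all 4 of Plxna2, and 1 each of Plxnb2 and Sema4a) and at 230 probe sets in all. The same count over all probe sets was 211 for AID-/- replicate 2 and 78 for replicate 3, with no member probe set in either. The 230 probe sets do not make replicate 1 an exception on the whole array, where replicate 2 stood apart nearly as often. The AID-/- SD was the larger of the pair at 17 of 27 member probe sets and at 53.7% of all probe sets. The spread was used in choosing these genes and is given as a description.

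**Figure D4:**
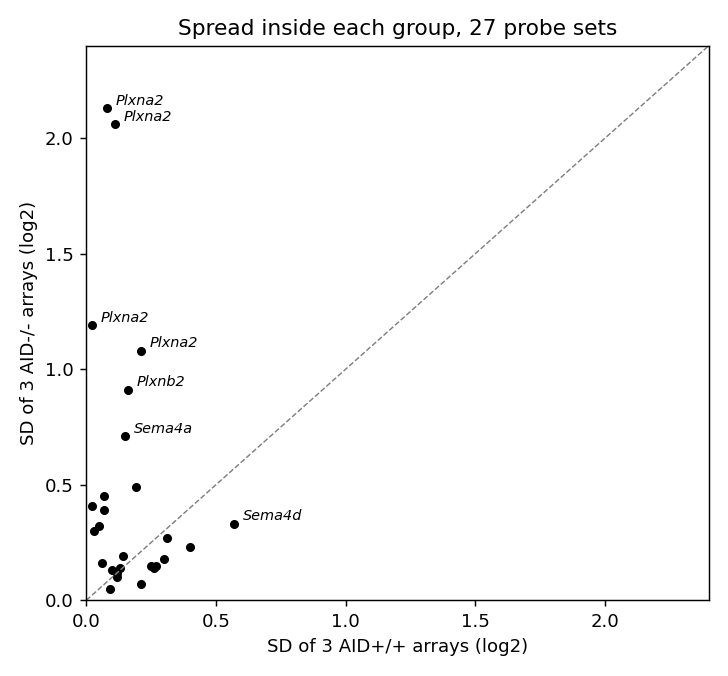
SD of the 3 AID-/- arrays against SD of the 3 AID+/+ arrays (log2) at the 27 probe sets, with a dashed line where both are equal. The 4 Plxna2 probe sets, Plxnb2 and 1 Sema4a probe set stand above the line with an AID-/- SD of 0.71 to 2.13.

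The remaining genes of the family, which were not among those proposed, were taken from the fit over 18193 genes, each at its probe set with the highest mean. In that fit 18.5% of all genes were called (10.1% higher and 8.42% lower) and 36.5% had groups that did not overlap. These genes and the lists below were chosen with earlier results of these data known, so their calls are a description. Of the other 16 semaphorin genes 3 rose, 0 fell and 13 missed the threshold, and their median difference was -0.03, as for all genes (-0.03). Sema6d, a membrane semaphorin and ligand of plexin A1, rose by 1.99 (SE 0.33, limma adjusted p = 0.00483), or 3.96-fold. Its AID-/- arrays read 8.24, 9.49 and 9.50 and its AID+/+ arrays 7.14, 6.79 and 7.34, so that replicate 1 was again nearest to the AID+/+ group. Of its other 3 probe sets, 1 also passed (0.60) and the others differed by 0.07 and 0.49.

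Sema3g, a secreted semaphorin, rose by 0.97 (SE 0.23, limma adjusted p = 0.0201) and Sema5a, a membrane semaphorin with thrombospondin repeats, rose by 1.21 (SE 0.34, limma adjusted p = 0.0415). Sema5a read 4.10, 3.48 and 5.03 in AID-/- and 2.94, 2.87 and 3.16 in AID+/+ arrays, and its 3 dimmer probe sets did not pass. Both are dim genes. Leaving out AID+/+ replicate 1 or 2 ended the call on Sema3g (adjusted p of 0.0672 and 0.0531). That on Sema5a ended with AID-/- replicate 1 or any single AID+/+ array left out (up to 0.122), and with its probe sets averaged (0.0911). Without AID+/+ replicate 1 or 2 only Sema6d was left, and without variance moderation 0 of the 16 passed by the ordinary linear model, with 3 at an unadjusted p under 0.05. The semaphorins with the highest mean beside Sema6d were Sema3f, with a difference of -0.13 (SE 0.09), and Sema6c, with -0.16 (SE 0.09), and neither passed. The Sema3f probe set used (mean 9.59) has the _x_at suffix described above for Sema4a, so its probes can also bind other transcripts. The other Sema3f probe sets had means of 5.04 and 3.51. The high rank of Sema3f therefore rests on the _x_at probe set alone.

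Of the other plexin and neuropilin genes, 0 of 5 rose, 1 fell and 4 missed the threshold, with a median of -0.18. Plxna3, a further class A plexin gene on the X chromosome, fell by 0.67 (SE 0.09, limma adjusted p = 0.00237), or 1.60-fold. Its AID-/- arrays read 5.93, 6.19 and 6.03 and its AID+/+ arrays 6.67, 6.76 and 6.75, without overlap. Sex cannot be told apart from genotype for this X-linked gene. Its other probe set differed by -0.38 and did not pass. Plxnb3, also X-linked, differed by -0.25 (SE 0.10) and Plxnb1, a receptor of Sema4d, by -0.18 (SE 0.11), and neither passed.

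Of the partner receptors and neuropilin ligands, 1 of 17 rose, 5 fell and 11 missed the threshold, with a median of -0.13. Among all genes 10.1% were called higher and 8.42% lower. Vegfa, the endothelial growth factor bound by Nrp1, fell by 1.41 (SE 0.16, limma adjusted p = 0.000821), from 10.29, 10.13 and 10.26 in AID+/+ to 9.05, 8.45 and 8.95 in AID-/- arrays. Vegfc fell by 1.53 (SE 0.22, adjusted p = 0.00277) and Vegfb by 0.83 (SE 0.22, adjusted p = 0.0360). Pgf, the placental growth factor gene, rose by 1.75 (SE 0.24, adjusted p = 0.00205), with 8.18, 9.16 and 8.69 in AID-/- and 6.66 to 7.11 in AID+/+ arrays. These growth factor genes thus moved in both directions.

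Cd72, the B cell receptor of Sema4d, fell by 0.84 (SE 0.17, limma adjusted p = 0.0127), or 1.79-fold. Its AID-/- arrays read 8.49, 7.78 and 8.08 and its AID+/+ arrays 9.02, 9.07 and 8.80. Met, a receptor kinase that associates with class B plexins, fell by 0.44 (SE 0.12, adjusted p = 0.0367) at a dim probe set, a call lost with the replicate number as a block (adjusted p = 0.0918) and with any array but replicate 2 of either group left out (up to 0.134), and with probe sets averaged (0.0923). Itgb1, the integrin chain bound by Sema7a, differed by -0.08 (SE 0.13) and did not pass. The call on Cd72 was lost without AID+/+ replicate 1 or 2 (up to 0.0528), and that on Vegfb without any single AID-/- array or AID+/+ replicate 3 (up to 0.0860).

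**Figure D5:**
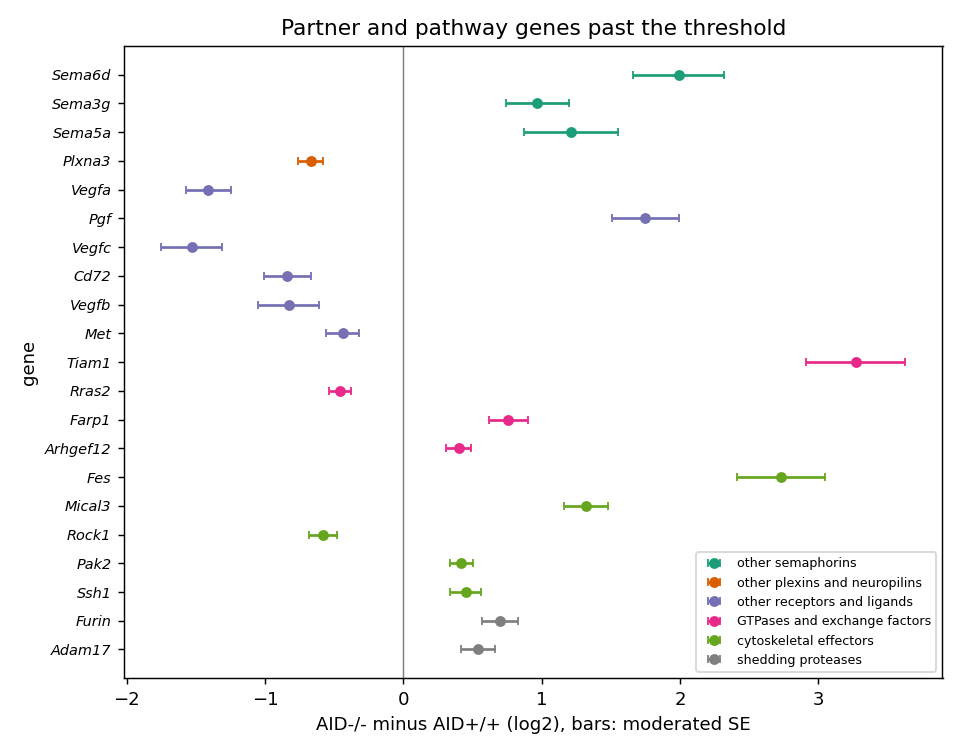
Difference between AID-/- and AID+/+ means (log2) for the partner and pathway genes past the threshold, coloured by list, with bars for the moderated SE. Tiam1, Fes and Sema6d have the highest differences (3.27, 2.73 and 1.99), and Vegfc and Vegfa the lowest (-1.53 and -1.41).

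Among small GTPases and their exchange factors, 3 of 17 measured genes rose, 1 fell and 13 missed the threshold, with a median of -0.04. Tiam1, an exchange factor that activates Rac, rose by 3.27 (SE 0.36, limma adjusted p = 0.000765) at the brightest of its 3 probe sets. Its AID-/- arrays read 7.82, 6.22 and 7.17 and its AID+/+ arrays 4.07, 3.75 and 3.57, below the median probe set, so the size is approximate, while the other probe sets differed by 0.21 and 0.31 without passing. Farp1, an exchange factor with a FERM domain, rose by 0.76 (SE 0.14, adjusted p = 0.00706) and Arhgef12, which couples class B plexins to RhoA, by 0.40 (SE 0.09, adjusted p = 0.0163). Rras2, a GTPase of the R-Ras group, fell by 0.46 (SE 0.08, adjusted p = 0.00678). The brightest members, Rac1, Rac2 and Rap1a, differed by -0.08 (SE 0.10), 0.15 (SE 0.14) and -0.15 (SE 0.09) and did not pass. For Rap1a this depended on the probe set: its dimmer one differed by -0.44 (SE 0.10), without overlap, and was called lower. Rap1a also passed as lower when its probe sets were averaged (difference -0.297, limma adjusted p = 0.0385). The call on Farp1 was lost when its probe sets were averaged (adjusted p = 0.122). That on Arhgef12 ended when AID-/- replicate 2, AID+/+ replicate 1 or AID+/+ replicate 3 was omitted (up to 0.0618), although another of its probe sets rose by 1.14.

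Among cytoskeletal effectors 4 of 21 measured genes rose, 1 fell and 16 missed the threshold, with a median of -0.06. Fes, a tyrosine kinase that acts downstream of plexin A1, rose by 2.73 (SE 0.32, limma adjusted p = 0.00103), with 7.99, 8.57 and 8.34 in AID-/- and 4.81, 5.73 and 6.16 in AID+/+ arrays, and its other probe set rose by 3.19. Mical3, of the MICAL family of flavoprotein monooxygenases that bind plexins and oxidise actin, rose by 1.32 (SE 0.16, adjusted p = 0.00122). Its only probe set read 5.35, 5.88 and 5.32 in AID-/- and 4.11 to 4.36 in AID+/+ arrays. The latter lie below the median probe set, so the size is approximate. The Rac-activated kinase gene Pak2 and the cofilin phosphatase gene Ssh1 rose by 0.42 (SE 0.08, adjusted p = 0.00943) and 0.45 (SE 0.11, adjusted p = 0.0249). Rock1, a kinase gene of actomyosin contraction, fell by 0.58 (SE 0.10, adjusted p = 0.00630), and all 5 of its probe sets were lower. Cfl1 (cofilin) and Dpysl2, the collapsin response mediator of class 3 semaphorin signals, differed by 0.13 (SE 0.10) and -0.08 (SE 0.10) and did not pass. The call on Ssh1 was lost with AID-/- replicate 2 or 3 or AID+/+ replicate 1 or 3 omitted, and with probe sets averaged (adjusted p of 0.0678 to 0.182), and that on Pak2 with probe sets averaged (adjusted p = 0.0675).

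Of 4 proteases that process or shed semaphorins, 2 rose, 0 fell and 2 missed the threshold, with a median of 0.39. Furin, a proprotein convertase, rose by 0.70 (SE 0.13, limma adjusted p = 0.00840), and Adam17, a sheddase, rose by 0.54 (SE 0.12, adjusted p = 0.0177), with each of the 3 Adam17 probe sets higher. Adam10 differed by 0.24 (SE 0.10) and did not pass. Omitting AID-/- replicate 3, AID+/+ replicate 2 or AID+/+ replicate 3 ended the call on Adam17 (up to 0.0731), where 1 of the 4 genes was left. Without variance moderation 0 of the 4 passed by the ordinary linear model, with 2 at an unadjusted p under 0.05. In that unmoderated model the calls on Pgf, Vegfc, Farp1, Ssh1, Cd72, Met and Vegfb also missed the threshold (adjusted p of 0.0529 to 0.175).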

How the data were processed

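The values are log2 expression per probe set as deposited by the authors, with a column for every array; RMA and Partek are the tools in the submitters' processing notes, which give no version or order. Scanner files and detection calls were not used. From 45101 probe sets 64 controls were left out. Of the 45037 tested, 34945 had exactly 1 gene symbol in the platform annotation, 932 several and 9160 none; Entrez identifiers gave 34741 of them a current RefSeq name (GRCm38.p6). The groups were compared in limma 3.58.1 (R 4.3.3) by a linear model on genotype alone with eBayes moderation, two-sided and without a filter, with Benjamini-Hochberg adjustment over all probe sets or all genes and a threshold of 0.05. The fit was tested on simulated data. The members and the gene lists were chosen with earlier results of these data known. In each other list, genes past the threshold (up to the 6 with the smallest p) and the 3 with the highest mean are named, and for Plxna2 the 5 nearest genes. Of the listed genes Rhod, Pak1 and Rock2 were not analysed here. The number of arrays limits the precision. The alternatives were other normalizations, filters, moderation, weights, thresholds, summaries of probe sets, omitted arrays and a replicate block.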

Additional observations from a re-analysis of the deposited data

How the results depend on the processing

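None of the called member differences changed sign under quantile normalization, median centring, array weights, the replicate block (which cannot move a balanced difference) or any omitted array, but their sizes moved: that of Plxna2 at 1455037_at ran from -4.48 to -2.49 with 1 array left out. The uncalled difference of Plxnb2 went from 0.40 to -0.13 without AID-/- replicate 1. Without variance moderation the fits called 2363 probe sets and 1635 genes, 0 member probe sets, 0 other semaphorins, 0 shedding proteases and 1 of the other receptors and ligands. At an adjusted p under 0.01 they called 3250 probe sets, 1755 genes, 4 member probe sets, 3 other receptors and ligands, 1 other semaphorin and 1 shedding protease. With dim genes left out, 1 of 6 remaining other semaphorins passed, since the dim genes Sema3g and Sema5a were themselves left out. Without genes of the sex chromosomes 0 of 3 other plexins and neuropilins passed, since Plxna3 and Plxnb3 were left out (0 at an unadjusted p under 0.05). With 1 array left out, limma called 4307 to 6109 probe sets, 2142 to 3214 genes, 4 to 10 member probe sets, 1 to 3 other semaphorins and 1 to 2 shedding proteases. Same-numbered replicates of the groups did not deviate together over all probe sets (correlations of -0.045, -0.072 and 0.031). The labels do not say what the shared number means, and these correlations cannot settle it. The replicate block gave 5369 probe sets, 2696 genes, 10 member probe sets and 5 other receptors and ligands. It ended the call on Met and changed no other call among the member probe sets and the family, partner and pathway lists. Its effect on the marker genes and on the genes patterned like Plxna2 was not examined. Where not stated, the cause of a change was not tested. Signal over background limits the dim probe sets, among them all of Nrp1.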
